A study of Homo sapiens with 48 samples.

Results

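The genes described here are 56 heat shock proteins, J proteins and heat shock factors, picked by symbol from the 14685 genes whose reads were counted in HEK293T cells after T-REX. The symbol had to start with HSP or DNAJ followed by a letter or digit, or be HSF1 or HSF2. Symbols with a hyphen or ending in P and digits, and the endoplasmic reticulum proteins HSPA5, HSP90B1, DNAJB9, DNAJB11, DNAJC3 and DNAJC10, were left out. The rule itself uses no measured value, but it was drawn up with earlier results of these data known. The set holds 11 HSP70 and HSP110 genes, 4 HSP90 genes, 34 J proteins (3 of class A, 8 of class B and 23 of class C), 2 small heat shock proteins, the mitochondrial chaperonin pair HSPD1 and HSPE1, both heat shock factors, and HSPG2. It is not wholly cytosolic. HSPD1, HSPE1, HSPA9 and DNAJA3 act in mitochondria, HSPA13 is a microsomal HSP70, HSP90AA2P and HSP90B2P are processed pseudogenes, and HSPG2 encodes perlecan, a matrix proteoglycan that the rule takes by its symbol. These are examples and not a full list, since further J proteins such as DNAJC11 also lie outside the cytosol.

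HEK293T is a human embryonic kidney line. All cells were transiently transfected with a plasmid for NCBP1, which binds the cap of nascent mRNA together with NCBP2, fused to Halo. In T-REX the photocaged probe Ht-PreHNE is anchored to Halo and light then frees HNE, a lipid-derived electrophile, beside NCBP1. RNA was taken 3, 6 and 12 h later from T-REX cells and from 3 controls, named light alone, probe alone (Ht-PreHNE, no light) and DMSO (vehicle, no light), with 4 replicate libraries per arm and time point and 48 in all. The methods list Ht-PreHNE and light for light alone, as they do for T-REX. Every arm carried the plasmid and came from the same line, so that no arm shows these genes without NCBP1-Halo, and counts for NCBP1 do not separate the plasmid from the endogenous gene. Of 6 markers of HEK293T cells, 5 were in the table, and none of 4 markers of other cell types (PTPRC, COL1A2, PECAM1 and ALB) was among the genes listed. Total counts per library lay between 23952455 and 37099535.

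Heat shock proteins bind unfolded or nascent polypeptides. HSP70 does so in a cycle of ATP hydrolysis that J proteins start and HSP110 proteins, acting as nucleotide exchange factors, reset, while HSP90 takes over clients at a later stage of folding. When misfolded or electrophile-modified proteins occupy these chaperones, HSF1 is freed, trimerizes and binds heat shock elements, arrays of inverted nGAAn units in the promoters of the inducible members. HNE is a known activator of HSF1 when it is given to whole cells.

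The heat shock element marks the promoters of some members whose levels the results turn on, and the matches are shown for that reason. RefSeq promoters (GRCh38.p14) from 250 bases before to 50 bases after the gene start were at hand for 49 members. They were searched for 3 adjoining units, GAANNTTCNNGAA or TTCNNGAANNTTC, which are reverse complements of each other, so that both strands were covered. Such an element was found in 4 of 49 members (8.16%), HSPA6, HSPA8, DNAJA1 and DNAJB6, against 133 of all 27305 promoters (0.487%). The matches that lie wholly before the RefSeq start of HSPA6 and HSPA8 read as follows on the gene's strand, with the element in capitals and 8 bases on each side.
HSPA6 (chr1:161524458-161524486, plus strand, 61 bases before the start): cggaaaggTTCGCGAAAGTTCgcggcggc
HSPA8, distal (chr11:123062346-123062374, minus strand, 217 bases before the start): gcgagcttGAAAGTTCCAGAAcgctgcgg
HSPA8, proximal (chr11:123062171-123062199, minus strand, 42 bases before the start): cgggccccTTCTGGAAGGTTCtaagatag
The shorter pattern of 2 units, GAANNTTC or TTCNNGAA, which every 3-unit element also contains, was found in 8 of 49 members (16.3%) and in 13.7% of all promoters. Neither pattern was found in the windows of DNAJB1 and HSPH1. The GENCODE 29 span of HSPA8 printed with its levels starts further upstream than the RefSeq start and holds both of its elements. A match describes the letters in this window and is not a measured binding site.

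Levels of the members spanned a wide range. The median over the 48 libraries ran from 1.77 to 1408 CPM (reads of a gene scaled to the size of its library, with TMM factors), with 13 members under 10 CPM and 17 over 100 CPM. On a scale of CPM per kilobase of exon, which allows genes to be compared, HSP90AB1 (299), HSPA8 (290), HSP90AA1 (212), HSPD1 (124) and DNAJA1 (74.1) stood highest. HSPA1B, the heat-inducible HSP70, reached 40.5 CPM per kilobase, close to its J protein partner DNAJB1 at 40.9. HSPA6, the strictly inducible HSP70B′, was near the bottom of the order at 1.12 CPM per kilobase. HSPA1A, whose coding sequence is nearly identical to that of HSPA1B, was not analysed here, and how reads that match both genes were counted is not given in the sources used here, so that the level of HSPA1B is uncertain. The same holds for HSPA6, which is closely related to both. HSPE1 shares 192 exonic bases with the readthrough gene HSPE1-MOB4 on the same strand and 281 with HSPD1 on the other, and its level of 4.87 CPM per kilobase is uncertain as well.

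Most members were steady between replicates. The median coefficient of variation within an arm and time point was 6.6% over the members, and DNAJB6 (3.63%), DNAJC9 (3.63%) and DNAJC7 (3.68%) varied least. The largest typical variation was in HSPA6 (28.7%), HSP90AA2P (24.6%), HSPG2 (21.1%), DNAJC4 (20.7%), HSPA1B (20.1%) and HSPB1 (19.2%). The genes of these lists that fall outside the naming rule (DNAJB6, DNAJC9, DNAJC7, DNAJC4 and HSP90AB1) were chosen after their values were seen. Libraries of the T-REX arm at 3 h differed most at that time point, with a median SD of 0.144 on the log2 CPM scale over the members, against 0.0831 to 0.0878 in the 3 controls. At 6 h the light alone arm (0.15, against 0.0944 to 0.109) and at 12 h the DMSO arm (0.162, against 0.0767 to 0.104) differed most. The same arms differed most over all genes above a set CPM floor, so this spread is not particular to the members. There the median SD was 0.121 at 3 h (against 0.0822 to 0.0863), 0.13 at 6 h (0.086 to 0.0972) and 0.142 at 12 h (0.0734 to 0.0861).

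**Figure D1:**
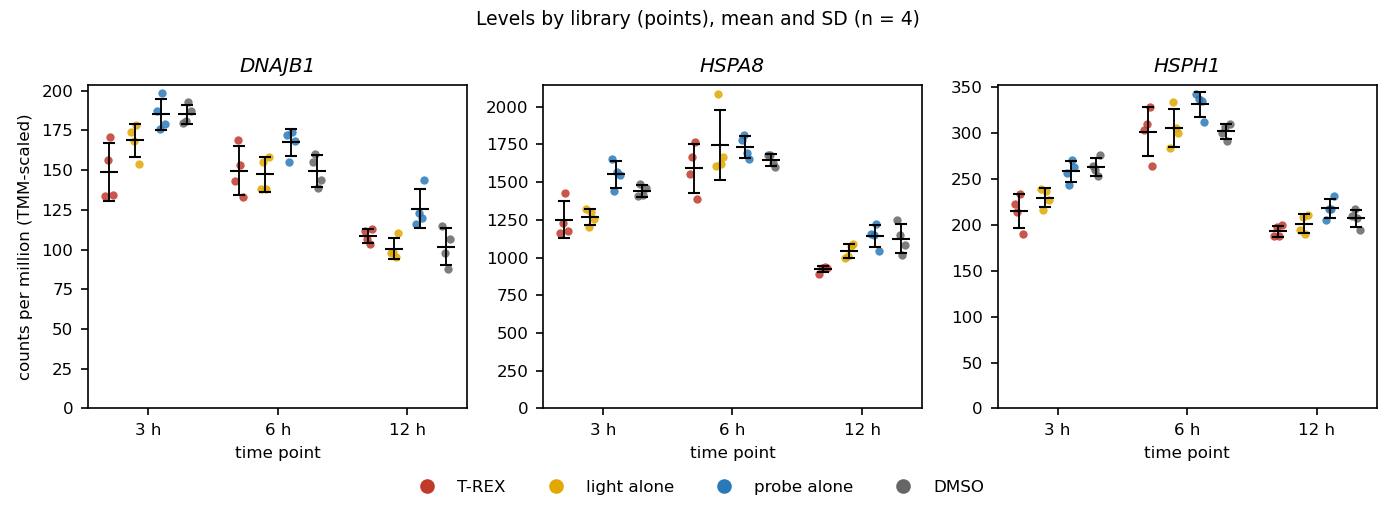
Levels of DNAJB1, HSPA8 and HSPH1 (CPM, TMM-scaled, y axes from 0) at 3, 6 and 12 h in the T-REX arm and the light alone, probe alone and DMSO controls, with 1 point per library and the mean and SD of 4 libraries in black. At 3 h the T-REX libraries of DNAJB1 (133 to 171) lie below all probe alone libraries (176 to 198), while at 6 h the arms overlap.

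At 3 h, DNAJB1, HSPA8 and HSPH1 were lower after T-REX than with probe alone and than with DMSO, by 0.20 to 0.32 on the log2 scale. DNAJB1 is the principal heat-inducible J protein partner of cytosolic HSP70, HSPA8 is the constitutive HSC70, and HSPH1 is an HSP110 that exchanges the nucleotide of HSP70. Each of them thus has a place in the same folding cycle. RNA was taken from whole wells, so that fewer cells with a transcript and less of it per cell cannot be told apart.

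DNAJB1 (chr19:14514770-14529770, minus strand, GRCh38, GENCODE 29) stood at 133, 156, 171 and 134 CPM in the 4 T-REX libraries at 3 h. It stood at 174, 168, 178 and 154 CPM with light alone, at 187, 176, 198 and 179 CPM with probe alone, and at 180, 181, 193 and 187 CPM with DMSO. The T-REX libraries were below every probe alone and DMSO library and overlapped with light alone. The log2 fold change was −0.32 ± 0.07 (SE) against probe alone (adjusted p = 0.0349, edgeR quasi-likelihood test) and −0.32 ± 0.07 against DMSO (adjusted p = 0.00961). Against light alone it was −0.18 ± 0.07 and not called (adjusted p = 0.209). With each library left out in turn, the call against DMSO was kept in 16 of 16 fits. The call against probe alone was kept in 9 of 16, and the adjusted p was 0.050 to 0.107 without DMSO replicate 1 or 2, T-REX replicate 1 or 4, or probe alone replicate 1, 2 or 3. In fits of only the 2 arms compared both calls were lost (adjusted p = 0.0551 against DMSO and 0.202 against probe alone). Exons of DNAJB1 overlap TECR by 211 bases on the opposite strand and also overlap MIR639 there.

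HSPA8 (chr11:123057489-123063230, minus strand) is the member with 2 heat shock elements in the printed windows and 1 of the most abundant. At 3 h it stood at 1166, 1232, 1430 and 1178 CPM after T-REX and at 1321, 1202, 1304 and 1259 CPM with light alone. It stood at 1653, 1438, 1567 and 1546 CPM with probe alone and at 1407, 1488, 1412 and 1462 CPM with DMSO. All T-REX libraries were below the lowest probe alone library, whereas T-REX replicate 3 lay within the DMSO range. The log2 fold change was −0.31 ± 0.06 against probe alone (adjusted p = 0.0167), −0.20 ± 0.06 against DMSO (adjusted p = 0.0443) and −0.02 ± 0.06 against light alone (adjusted p = 0.916). The call against probe alone was lost without T-REX replicate 4 or probe alone replicate 1 or 3 (adjusted p 0.0532 to 0.0899). The call against DMSO was kept in 3 of 16 fits and was lost without any 1 DMSO library, T-REX replicate 1, 2 or 4, light alone replicate 1, 3 or 4, or probe alone replicate 1, 3 or 4 (adjusted p 0.0502 to 0.13). In fits of only the 2 arms both calls were lost (adjusted p = 0.188 against probe alone and 0.126 against DMSO). Exons of HSPA8 share 88 bases with SNORD14C on the same strand and also overlap SNORD14D there.

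HSPH1 (chr13:31134974-31162388, minus strand) stood at 222, 214, 233 and 190 CPM after T-REX at 3 h. The levels were 239, 216, 237 and 226 CPM with light alone, 256, 243, 270 and 262 CPM with probe alone, and 264, 260, 253 and 276 CPM with DMSO. T-REX libraries were below all probe alone and DMSO libraries and overlapped with light alone. The log2 fold change was −0.29 ± 0.06 against DMSO (adjusted p = 0.00523), kept in 16 of 16 fits without 1 library, and −0.26 ± 0.06 against probe alone (adjusted p = 0.0345). The latter was kept in 10 of 16 fits, and the adjusted p was 0.0501 to 0.0934 without DMSO replicate 1, T-REX replicate 2 or 4, or probe alone replicate 1, 2 or 3. In fits of only the 2 arms the call against DMSO was kept (adjusted p = 0.0455) and that against probe alone was lost (adjusted p = 0.202). Against light alone the change was −0.10 ± 0.06 (adjusted p = 0.453).

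Light alone cells were themselves lower than probe alone cells in part of the set at 3 h. Light alone minus probe alone was −0.29 ± 0.06 on the log2 scale for HSPA8 and −0.24 ± 0.05 for HSPD1 (HSP60, the mitochondrial chaperonin), with an adjusted p of 0.0436 for both. HSPD1 stood at 457, 474, 463 and 479 CPM with light alone and at 577, 538, 560 and 539 CPM with probe alone, without overlap, and at 468, 477, 523 and 461 CPM after T-REX. The 2 calls made 3.57% of the members, where 0.232% of all genes were called in this comparison, and the same 0.232% in at least 1 comparison of controls. The call for HSPA8 was kept in 5 of 16 fits without 1 library and was lost without DMSO replicate 1, 2 or 4, T-REX replicate 2, any 1 light alone library, or probe alone replicate 1, 3 or 4 (adjusted p 0.0625 to 0.239). The call for HSPD1 was kept in 4 of 16 and was lost without DMSO replicate 1, 2 or 4, T-REX replicate 2, or any 1 light alone or probe alone library (adjusted p 0.0506 to 0.231). It was also lost with the replicate number as a block (adjusted p = 0.0692), which leaves 1 member called. No member was called between light alone and DMSO (9 at an unadjusted p of 0.05 or less) or between probe alone and DMSO (2 at that level) at 3 h.

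Counted over the set at 3 h, 3 of 56 members were called against probe alone, all lower (5.36%, where 1.05% of all genes were called). Against DMSO 5 were called, 3 lower and 2 higher (8.93%, where 5.99% of all genes were called). Against light alone edgeR called 0 members and DESeq2 0, with 10 at an unadjusted p of 0.05 or less, where 0.197% of all genes were called. DNAJB1, HSPA8 and HSPH1 were called lower against at least 2 controls, a rule met by 0.947% of all genes. These comparisons share the T-REX libraries and are not independent of each other. The count against probe alone was 7 without T-REX replicate 3, 1 without DMSO replicate 1 or probe alone replicate 2, and 0 with T-REX replicate 4 or probe alone replicate 1 or 3 left out. The count against DMSO was 2 without DMSO replicate 1, 2 or 4 or T-REX replicate 4, and 3 without T-REX replicate 2, light alone replicate 1, 3 or 4, or probe alone replicate 1 or 3. With the deposited factors of unwanted variation (RUV) as covariates the counts against the light alone, probe alone and DMSO controls were 7, 10 and 15, and in fits of only the 2 arms compared they were 0, 0 and 1. Shares of all genes called are given for the main fit only, so the counts of other fits have no background beside them. NCBP1 stood at 55428 to 91280 CPM after T-REX at 3 h, 55030 to 69680 CPM with light alone, 58197 to 67888 CPM with probe alone and 45659 to 61301 CPM with DMSO, and its part in these counts was not tested.

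The 2 members higher than DMSO at 3 h were class C J proteins outside the HSP70 inducible group. DNAJC17, a splicing-associated J protein, stood at 7.03, 6.87, 6.83 and 6.89 CPM after T-REX and at 5.52, 4.24, 5.17 and 5.39 CPM with DMSO, without overlap. Its log2 fold change was 0.44 ± 0.13 (adjusted p = 0.0466), and the call was kept in 2 of 16 fits, those without probe alone replicate 2 or 4 (adjusted p 0.053 to 0.158 without any 1 of the other libraries, and 0.108 in a fit of the 2 arms alone). DNAJC11, a protein of the mitochondrial outer membrane that was chosen after its values were seen, stood at 66.8, 67.9, 82.6 and 70.5 CPM after T-REX and at 62.8, 57.8, 65.0 and 56.6 CPM with DMSO. These groups did not overlap either, and the log2 fold change was 0.25 ± 0.07 (adjusted p = 0.0287), lost without DMSO replicate 1, 2 or 4 or T-REX replicate 3 or 4 (adjusted p 0.0527 to 0.108) and in a fit of the 2 arms alone (adjusted p = 0.122). Exons of DNAJC11 overlap THAP3 by 1419 bases and those of DNAJC17 overlap GCHFR by 1151 bases, both on the opposite strand. Neither was called against light alone (0.15 ± 0.07 for DNAJC11 and 0.31 ± 0.13 for DNAJC17) or probe alone (0.11 ± 0.07 and 0.20 ± 0.13). Of the other 21 class C members, 0 were called at 3 h.

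HSPA1B, HSPA6 and HSPB1, the members with the strongest known induction by heat, were not called at 3 h. HSPA1B stood at 63.7, 71.8, 170 and 123 CPM after T-REX and at 110, 91.7, 137 and 86.5 CPM with DMSO. The T-REX libraries held both the lowest and the highest of these 8 values, and the log2 fold change was 0.01 ± 0.34 (adjusted p = 0.99). Its coefficient of variation in the T-REX arm at 3 h was 46.1%, and that of HSPB1 (HSP27) was 44.7%. HSF1 varied there by 33%, with 22.8, 28.4, 48.4 and 39.9 CPM in the 4 libraries. T-REX replicate 3 was the highest T-REX library for HSPA1B, HSF1, DNAJB1, HSPA8 and HSPH1. At this spread a change of HSPA1B of the size seen in DNAJB1 was not detectable.

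At 6 h the members gave no call in any comparison of arms. edgeR called 0 of 56 against light alone (3 at an unadjusted p of 0.05 or less), 0 against probe alone (6) and 0 against DMSO (9), where 0.218%, 0.109% and 0.415% of all genes were called. DESeq2 called 0, 0 and 1, the last being DNAJC6, auxilin, which uncoats clathrin vesicles with HSC70. No member met the rule of at least 2 controls (0.136% of all genes), and 0 were called between controls by edgeR (0.0749% of all genes), with 7 (light alone against DMSO), 5 (probe alone against DMSO) and 6 (light alone against probe alone) at an unadjusted p of 0.05 or less. HSPA8 stood at 1552, 1666, 1767 and 1385 CPM after T-REX, at 1605, 2088, 1620 and 1670 CPM with light alone, at 1778, 1811, 1694 and 1654 CPM with probe alone and at 1680, 1678, 1626 and 1604 CPM with DMSO, so that all arms overlapped. DNAJB1 averaged 150, 147, 167 and 149 CPM in the T-REX arm and the light alone, probe alone and DMSO controls. The light alone arm was low in HSPA6 at 6 h, which stood at 2.81, 2.48, 2.62 and 3.53 CPM after T-REX and 2.27, 1.12, 1.6 and 1.67 CPM with light alone, which did not overlap. Light alone minus DMSO was −0.87 ± 0.22 on the log2 scale (adjusted p = 0.153), light alone minus probe alone was −0.85 ± 0.22 (adjusted p = 0.206) and T-REX minus light alone was 0.78 ± 0.22 (adjusted p = 0.155). edgeR called none of these, and DESeq2 called both differences of light alone from the other controls. With the RUV factors as covariates 3, 2 and 5 members were called at 6 h against the light alone, probe alone and DMSO controls, and the count against DMSO was 1 without light alone replicate 3. The shares of all genes called in these other fits are not given here.

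At 12 h HSPA8 was lower after T-REX than in each control by level and was called against probe alone and DMSO. It stood at 891, 929, 941 and 932 CPM after T-REX and at 999, 1009, 1075 and 1090 CPM with light alone. The levels were 1159, 1149, 1221 and 1041 CPM with probe alone and 1247, 1153, 1019 and 1081 CPM with DMSO. The highest T-REX library lay below the lowest of the 12 control libraries. The log2 fold change was −0.31 ± 0.06 against probe alone (adjusted p = 0.00667), −0.29 ± 0.06 against DMSO (adjusted p = 0.00219) and −0.18 ± 0.06 against light alone (adjusted p = 0.134). The call against DMSO was kept in 16 of 16 fits without 1 library, and that against probe alone in 14, with an adjusted p of 0.0526 to 0.0575 without T-REX replicate 1 or probe alone replicate 3. HSPA8 was the 1 member called against at least 2 controls at 12 h, a rule met by 1.4% of all genes. That count was 0 without T-REX replicate 1 or probe alone replicate 3, 2 without DMSO replicate 1 or T-REX replicate 2, and 3 without DMSO replicate 3 or 4 or probe alone replicate 4.

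HSP90AA1, the inducible HSP90α, and DNAJA1, a class A J protein, were lower than with probe alone at 12 h. HSP90AA1 stood at 1050, 1101, 1056 and 1065 CPM after T-REX and at 1311, 1293, 1406 and 1149 CPM with probe alone, without overlap (−0.27 ± 0.06, adjusted p = 0.0192). DNAJA1 stood at 144, 137, 135 and 148 CPM after T-REX and at 178, 174, 182 and 161 CPM with probe alone, again without overlap (−0.30 ± 0.06, adjusted p = 0.0138). Both calls were lost without T-REX replicate 1, 2 or 3 or probe alone replicate 1, 2 or 3 (adjusted p 0.0538 to 0.0997 for DNAJA1), and that for HSP90AA1 also without T-REX replicate 4 (adjusted p 0.0517 to 0.13). Against DMSO the log2 fold changes were −0.16 (adjusted p = 0.074) and −0.17 (adjusted p = 0.0724), and for DNAJA1 the DMSO libraries were at 177, 160, 150 and 148 CPM, the lowest of them next to the highest T-REX library without overlap. For HSP90AA1 the DMSO libraries were at 1313, 1229, 1141 and 1080 CPM, and T-REX replicate 2 lay among them.

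HSPD1 and DNAJC8, the latter a spliceosome-associated J protein chosen after its values were seen, were called lower than DMSO at 12 h although the groups overlapped. HSPD1 stood at 445, 465, 447 and 432 CPM after T-REX and 560, 542, 507 and 462 CPM with DMSO (−0.21 ± 0.06, adjusted p = 0.0242). DNAJC8 stood at 177, 186, 181 and 198 CPM after T-REX and 225, 212, 196 and 207 CPM with DMSO (−0.18 ± 0.05, adjusted p = 0.0242). The call for HSPD1 was lost without DMSO replicate 1 or 2 or T-REX replicate 1, 3 or 4 (adjusted p 0.0571 to 0.0752). The call for DNAJC8 was lost without DMSO replicate 1 or 2 or T-REX replicate 1 or 3 (adjusted p 0.0535 to 0.0952). Both were also lost in a fit of the 2 arms alone (adjusted p = 0.0865 for HSPD1 and 0.117 for DNAJC8).

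**Figure D2:**
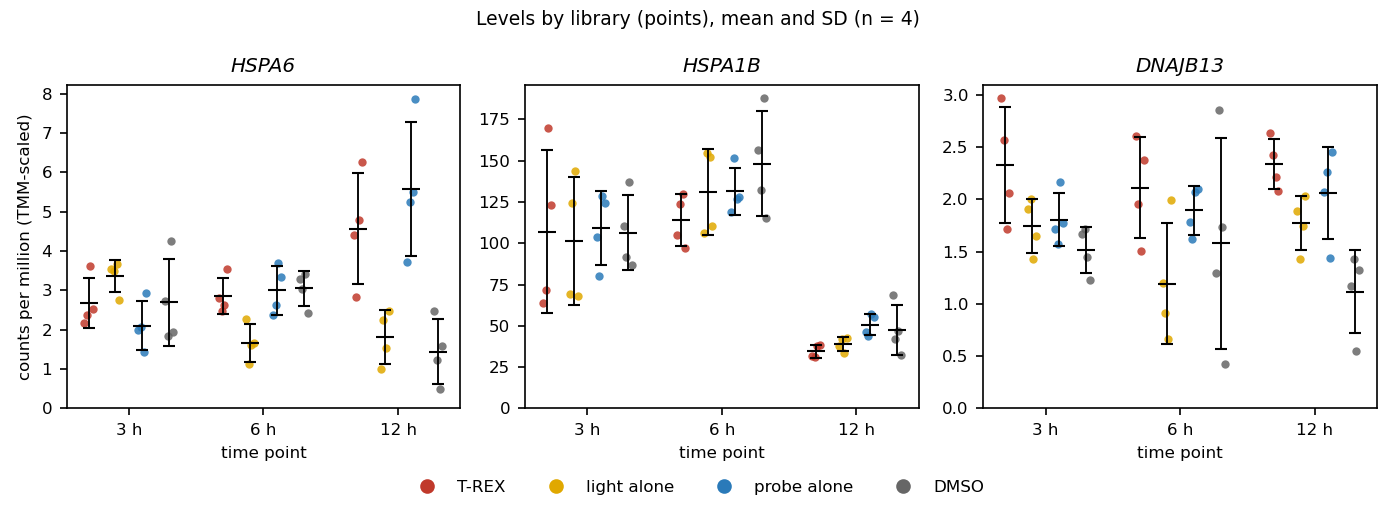
Levels of HSPA6, HSPA1B and DNAJB13 (CPM, TMM-scaled, y axes from 0) by arm and time point, with 1 point per library and the mean and SD of 4 libraries in black. At 12 h HSPA6 lies at 2.84 to 7.86 in T-REX and probe alone and at 0.507 to 2.47 in light alone and DMSO, and HSPA1B is lower in every arm at 12 h than at 6 h.

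HSPA6 (chr1:161524540-161526910, plus strand), an intronless gene that is nearly silent without stress, moved the other way at 12 h. It stood at 4.41, 2.84, 4.79 and 6.25 CPM after T-REX, at 0.992, 2.25, 1.53 and 2.47 CPM with light alone, at 3.73, 5.24, 5.49 and 7.86 CPM with probe alone and at 2.47, 1.22, 0.507 and 1.58 CPM with DMSO. T-REX and probe alone libraries overlapped with each other, and all 8 were above all 8 libraries of light alone and DMSO. T-REX minus DMSO was 1.65 ± 0.35 on the log2 scale (adjusted p = 0.00543) and probe alone minus DMSO was 1.93 ± 0.35 (adjusted p = 0.00567), both kept in 16 of 16 fits without 1 library. T-REX minus probe alone was −0.28 ± 0.32 (adjusted p = 0.814), and T-REX minus light alone was 1.34 ± 0.34 and not called (adjusted p = 0.0563). Light alone minus probe alone was −1.62 ± 0.34 (adjusted p = 0.0421), lost without DMSO replicate 2, T-REX replicate 1 or 3, light alone replicate 1, 2 or 3, or probe alone replicate 2, 3 or 4 (adjusted p 0.0513 to 0.169). NCBP1 counts moved with this pattern, at 53460 to 65388 CPM after T-REX and 54206 to 75762 CPM with probe alone against 35301 to 50254 CPM with light alone and 31488 to 41334 CPM with DMSO, and their part in the result was not tested.

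DNAJB13, a J protein of the sperm flagellum expressed at a low level here, was also higher than DMSO at 12 h. It stood at 2.64, 2.42, 2.21 and 2.08 CPM after T-REX and at 1.17, 1.43, 0.546 and 1.32 CPM with DMSO, without overlap. With light alone it stood at 1.88, 1.43, 1.74 and 2.03 CPM and with probe alone at 2.07, 2.26, 1.44 and 2.45 CPM. T-REX minus DMSO was 1.05 ± 0.25 on the log2 scale (adjusted p = 0.00831), kept in 16 of 16 fits without 1 library and lost in a fit of the 2 arms alone (adjusted p = 0.0536). T-REX minus light alone was 0.40 (adjusted p = 0.502) and T-REX minus probe alone was 0.19 (adjusted p = 0.836). Probe alone minus DMSO was 0.86 ± 0.25 (adjusted p = 0.0459), kept in 4 of 16 fits and lost without DMSO replicate 3, any 1 T-REX or light alone library, or probe alone replicate 1, 2 or 4 (adjusted p 0.0523 to 0.153), and in a fit of the 2 arms alone (adjusted p = 0.201). Its exons overlap AP003717.1 by 799 bases on the other strand.

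The controls differed among themselves in DNAJB1 at 12 h. It stood at 116, 123, 120 and 144 CPM with probe alone, at 97.5, 98.7, 95.5 and 110 CPM with light alone at 115, 97.7, 87.8 and 106 CPM with DMSO and at 111, 107, 103 and 113 CPM after T-REX. The probe alone libraries were above all other libraries, and the other 3 arms overlapped. Probe alone minus DMSO was 0.30 ± 0.07 on the log2 scale (adjusted p = 0.0184), lost without DMSO replicate 2 or probe alone replicate 4 (adjusted p 0.0517 to 0.0697) and in a fit of the 2 arms alone (adjusted p = 0.148). Light alone minus probe alone was −0.32 ± 0.07 (adjusted p = 0.0495), kept in 4 of 16 fits and lost without DMSO replicate 2, any 1 T-REX or probe alone library, or light alone replicate 1, 2 or 3 (adjusted p 0.0552 to 0.177). T-REX minus probe alone was −0.21 ± 0.07 without overlap and was not called (adjusted p = 0.242), though it was called with the RUV factors as covariates and in a fit of these 2 arms alone.

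Counted over the set at 12 h, 3 members were called against probe alone, all lower (5.36%, where 0.701% of all genes were called). Against DMSO 5 were called, 3 lower and 2 higher (8.93%, where 10.9% of all genes were called, so that the share is near the background). Against light alone edgeR called 0 (6 at an unadjusted p of 0.05 or less, where 1.29% of all genes were called) and DESeq2 called 2, HSPA6 and DNAJC21 (chosen after its values were seen), both higher. Between controls 3 were called for probe alone against DMSO (5.36%, background 5.11%), 2 for light alone against probe alone (3.57%, background 0.415%) and 0 for light alone against DMSO (10 at an unadjusted p of 0.05 or less), and 3 members in at least 1 of these (5.36%, background 5.26%). The count against DMSO was 16 without DMSO replicate 4, the DMSO library with the lowest HSPA1B, HSP90AA1 and HSPD1, and 3 without T-REX replicate 1 or 3. The count against light alone was 4 without DMSO replicate 3, 2 without DMSO replicate 1 and 1 with T-REX replicate 2 or probe alone replicate 4 left out. The count against probe alone was 1 without T-REX replicate 2 or 3 or probe alone replicate 1 or 2, and 0 with T-REX replicate 1 or probe alone replicate 3 left out. With the RUV factors as covariates the counts against the light alone, probe alone and DMSO controls were 5, 11 and 17, and in fits of only the 2 arms compared they were 4, 9 and 2. No share of all genes is given for these fits or for those without 1 library.

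**Figure D3:**
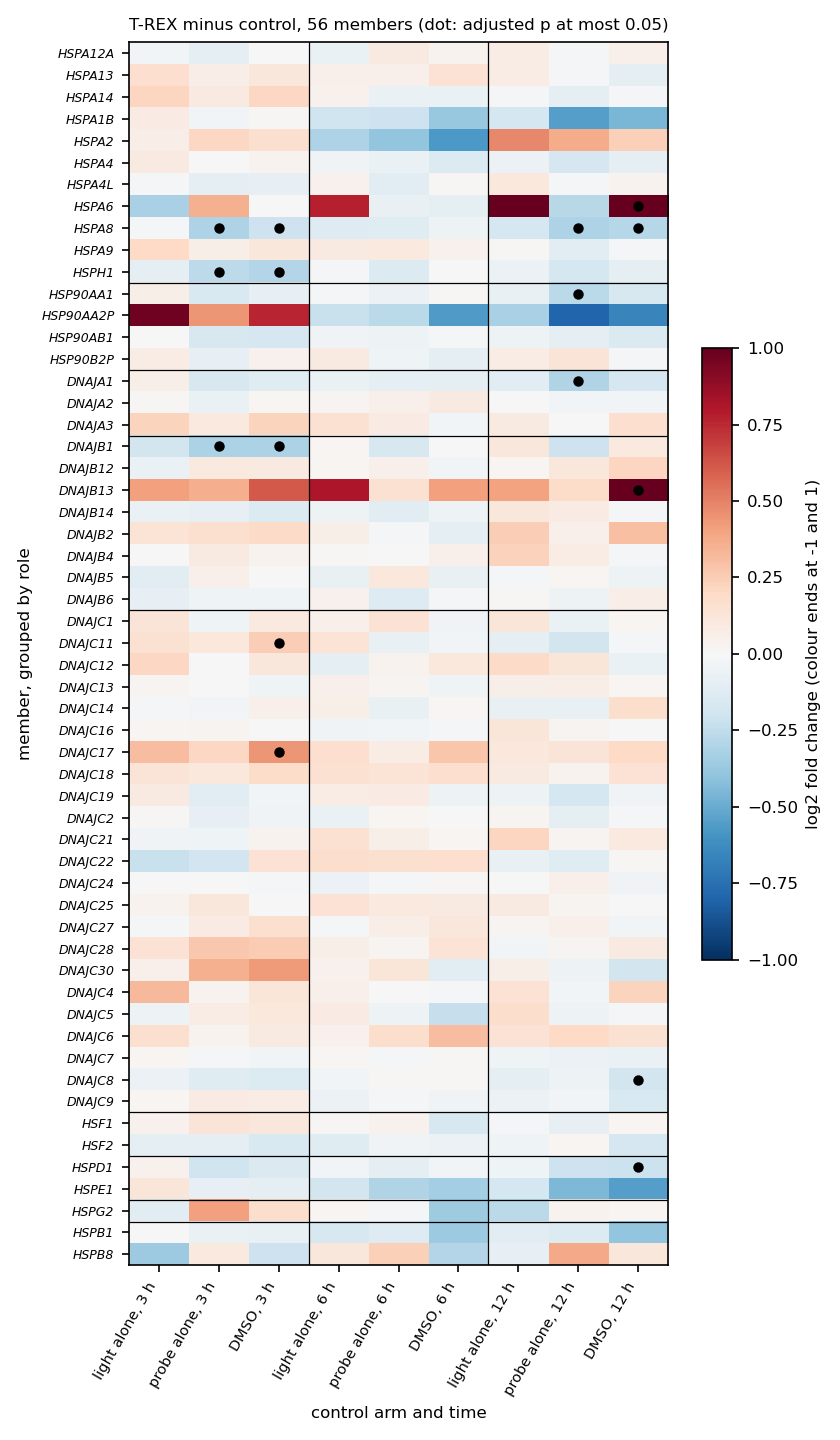
Log2 fold changes of T-REX minus each control for the 56 members (rows, grouped by role with lines between groups) at 3, 6 and 12 h (columns), as color from −1 to 1, with a dot where the adjusted p was at most 0.05. Dots are 3 and 5 in the probe alone and DMSO columns at 3 h, 0 at 6 h, and 3 and 5 in the same columns at 12 h, with 0 in the light alone columns.

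The 11 inducible members measured (HSPA1B, HSPA6, HSPA8, HSPH1, HSPA4L, HSPB1, HSP90AA1, DNAJB1, DNAJA1, HSPD1 and HSPE1) mostly had negative estimates against probe alone, though most did not pass the test singly. This list includes HSPA8, the constitutive HSC70. The median log2 fold change of the 11 against probe alone was −0.15 at 3 h (10 of 11 below 0). It was −0.12 at 6 h (11 of 11) and −0.27 at 12 h (11 of 11). The median of all genes was 0.02, 0.01 and 0.00, and 6508, 7044 and 7284 of 14685 lay below 0. Against DMSO the median of the 11 was −0.09, −0.05 and −0.17, and against light alone it was 0.00, −0.02 and −0.07. Light alone minus probe alone had medians of the same sign in these genes, −0.17 at 3 h (10 of 11 below 0), −0.06 at 6 h (9 of 11) and −0.19 at 12 h (11 of 11). Of all 14685 genes, 6700, 7088 and 7477 lay below 0 there. Of the 11, those called for T-REX against probe alone were 3, 0 and 3 at the 3 times. HSPA1B at 12 h was at 31.6, 30.9, 37.6 and 38.6 CPM after T-REX and 46.4, 44.1, 57.3 and 55.1 CPM with probe alone, without overlap, and was not called (−0.55 ± 0.18, adjusted p = 0.23). HSPE1 was at −0.45 ± 0.20 in the same comparison (adjusted p = 0.412). Summed over the 11 genes, CPM at 12 h averaged 3219 ± 38 (SD, n = 4) after T-REX, 3650 ± 266 with DMSO, 3827 ± 202 with probe alone and 3403 ± 70 with light alone, and HSPA8 and HSP90AA1 make up most of each sum.

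HSF1 and HSF2, the transcription factors of the response, were not called between any arms at any time, whereas HSF2 was called lower than DMSO at 3 and 12 h, and lower with probe alone than DMSO at 12 h, with the RUV factors as covariates. In the control arms HSF2 fell by 0.10 ± 0.04 on the log2 scale from 3 to 12 h (adjusted p = 0.0191). T-REX minus control lay between −0.16 and 0.13 on the log2 scale for HSF1 over the 9 comparisons and between −0.17 and 0.02 for HSF2. The lowest adjusted p for HSF2 was 0.0952, against DMSO at 12 h. HSF1 is set free by protein modification and trimer assembly rather than by its mRNA level, which these counts do not measure. HSPB1 at 12 h was at −0.39 ± 0.13 against DMSO (adjusted p = 0.0513). HSP90AA2P, the HSP90α pseudogene, stood at 2.22, 2.31, 7.53 and 1.54 CPM after T-REX at 3 h, so that its estimate there (0.97 ± 0.40 against light alone, adjusted p = 0.264) rests on replicate 3. Reads from HSP90AA1 may be counted for it, since its sequence is a copy of that mRNA.

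**Figure D4:**
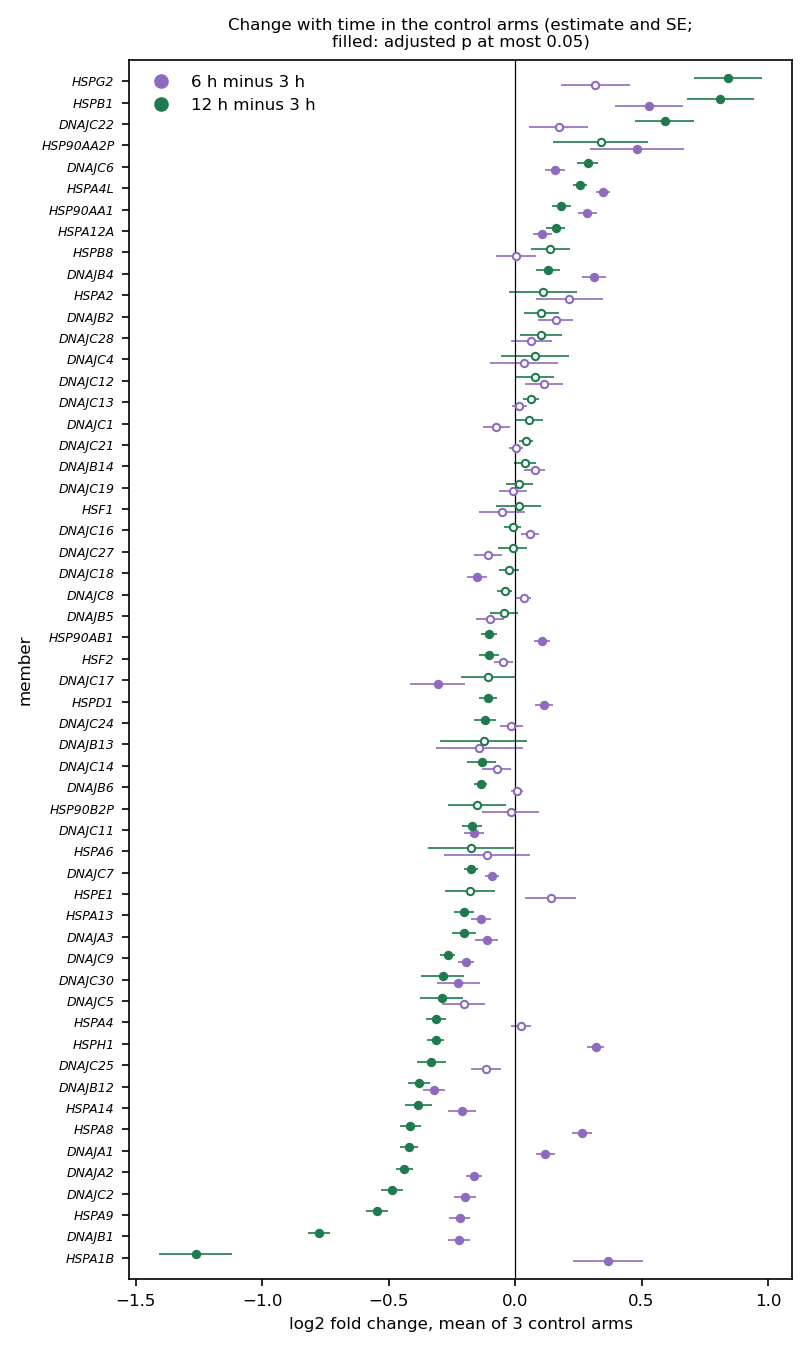
Log2 fold changes with time in the mean of the 3 control arms for the 56 members (rows, sorted by 12 h minus 3 h), 6 h minus 3 h in purple and 12 h minus 3 h in green, with standard errors and filled points where the adjusted p was at most 0.05. HSPA1B lies at 0.37 and −1.26 in the 2 contrasts and HSPG2 lies highest at 12 h, at 0.84.

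Levels of the members also changed with the time after treatment. In the mean of the 3 control arms, 27 members (48.2%) were called for 6 h against 3 h, 13 higher and 14 lower, where 41.5% of all genes were called. For 12 h against 3 h 33 (58.9%) were called, 8 higher and 25 lower (background 60.9%), and for 12 h against 6 h 24 (42.9%), 4 higher and 20 lower (background 35%). The first and last shares are above the background by under 10 percentage points and the second is below it. Time point, harvest and count table cannot be told apart here.

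Among the inducible members, HSPA8, HSPH1, HSPA1B, HSP90AA1, DNAJA1, HSPA4L, HSPD1 and HSPE1 had their highest control median at 6 h. HSPA8 had a control median of 1444 CPM at 3 h, 1692 at 6 h and 1066 at 12 h (6 h minus 3 h 0.27 ± 0.04, 12 h minus 6 h −0.68 ± 0.04 on the log2 scale, adjusted p = 3.36e-07 and 2.16e-18). HSPH1 had medians of 257, 311 and 204 CPM (0.32 ± 0.03 and −0.63 ± 0.03), and HSPA1B of 109, 132 and 42.4 CPM (0.37 ± 0.14 and −1.63 ± 0.14). Of the 11, 8 were called higher and 1 lower for 6 h against 3 h. Of all 14685 genes, 3160 were called higher and 2941 lower in that contrast. For 12 h against 6 h, 0 of the 11 were called higher and 9 lower, and 2582 and 2552 of all genes. By estimate alone, 9 of the 11 lay above 0 and 2 below in the first contrast, and 1 above and 10 below in the second. The member called lower for 6 h against 3 h was DNAJB1, with medians of 182, 157 and 106 CPM (12 h minus 3 h −0.78 ± 0.04). HSPB1 alone among the 11 had its highest control median at 12 h, with 9.50, 13.9 and 16.6 CPM and a 12 h minus 3 h change of 0.81 ± 0.13. HSP90AA1 and HSPA4L were also called higher at 12 h than at 3 h.

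Members outside the inducible list also changed with time in the controls. HSPA9, the mitochondrial HSP70 mortalin, fell by 0.55 ± 0.04 on the log2 scale from 3 to 12 h. DNAJC2, a ribosome-associated J protein, fell by 0.49 ± 0.04, and DNAJA2, a class A partner of HSP70, fell by 0.44 ± 0.03. HSPG2 rose by 0.84 ± 0.14, DNAJC22 by 0.59 ± 0.12, auxilin DNAJC6 by 0.29 ± 0.04 and the HSP110 member HSPA4L by 0.26 ± 0.03. In the DMSO arm alone, 11, 25 and 13 members (19.6%, 44.6% and 23.2%) were called in the contrasts of 6 h against 3 h, 12 h against 3 h and 12 h against 6 h. Of all 14685 genes, 1329 were called higher and 1023 lower in the first of these DMSO contrasts. The second had 2997 higher and 2697 lower, and the third 1060 higher and 721 lower.

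Whether T-REX acted on a member differently at different times was tested as an interaction, T-REX minus the mean of the controls at a later time against 3 h. edgeR and DESeq2 called 0 members for 6 h (4 at an unadjusted p of 0.05 or less, 0% of all genes called) and 0 for 12 h (6 at that level, 0.116% of all genes called). The DNAJB1 estimate was 0.28 ± 0.09 for 12 h against 3 h (adjusted p = 0.173), that of HSPA8 was −0.07 ± 0.08 (adjusted p = 0.801), and that of HSPA6 was 0.90 ± 0.33 (adjusted p = 0.27). A call at 3 or 12 h and its absence at 6 h therefore do not show a difference between times. Without T-REX replicate 4 of 3 h, 1 member was called for 12 h.

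Genes that work with the members were counted from lists of other pathway genes. Of 24 HSP90 and HSP70 co-chaperones, 1 was called against probe alone at 3 h and 4 against DMSO, all lower, where 1.05% and 5.99% of all genes were called. These were PTGES3 (p23, the HSP90 co-chaperone, −0.21 ± 0.05 and −0.27 ± 0.05), CHORDC1 (−0.22 ± 0.05), ST13 (HIP, −0.16 ± 0.05) and BAG2 (−0.27 ± 0.08). At 12 h 3 were called against DMSO, again lower, PTGES3 (−0.22 ± 0.05), HSPBP1 (−0.41 ± 0.11) and BAG4 (−0.27 ± 0.06), a share near the background of 10.9%. Of 13 genes of the chaperonin TRiC and prefoldin, which fold actin and tubulin, 3 were called lower than DMSO at 3 h (background 5.99%) and 5 at 12 h (background 10.9%), of which VBP1 (−0.17 ± 0.05 and −0.29 ± 0.06) and CCT8 (−0.19 ± 0.05 and −0.16 ± 0.04) were called at both times. Against light alone and probe alone 0 of these 13 were called at any time by edgeR, with 0 to 6 at an unadjusted p of 0.05 or less.

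Of 7 further HSF1 pathway genes, HSBP1, which binds the HSF1 trimer, was lower than DMSO at 3 h (−0.22 ± 0.06) and lower than light alone (−0.26 ± 0.06) and DMSO (−0.36 ± 0.06) at 12 h. Of the 6 chaperones of the endoplasmic reticulum that the rule leaves out, HSPA5 (BiP) was the 1 called, and it was higher. The changes were 0.34 ± 0.07 against DMSO at 3 h, and 0.21 ± 0.05 against light alone and 0.18 ± 0.05 against DMSO at 12 h. In these comparisons, which are also those of HSBP1, 5.99%, 1.29% and 10.9% of all genes were called. At 12 h against DMSO, HSPA5 and HSPA8, the HSP70s of the reticulum and of the cytosol, thus had called changes of opposite sign. The difference between these 2 genes was not itself tested.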

How the data were processed

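RNA was depleted of rRNA and made into stranded libraries, and both ends were sequenced on a NovaSeq instrument. The authors deposited raw counts per gene for each time point. The Reporting Summary lists cutadapt, the aligner TopHat and Cufflinks for the RNA-seq. Genome build, counter and use of strand are not given in the sources used here. The RUV score per library that the authors deposited entered 1 alternative, and the deposited log2 CPM tables were not used. Counts of 16 libraries per time point were fitted in edgeR 4.0.16 (R 4.3.3; TMM, filterByExpr, which removed 0 genes, robust quasi-likelihood test). Time and interaction came from a fit of 48 libraries. p-values were adjusted over 14685 genes (Benjamini-Hochberg), and 0.05 was the threshold. Tables were made in Python 3.11.15. The edgeR steps were tested on simulated counts for T-REX against DMSO at 12 h, and the other fits were not tested in this way. The design text calls the replicates biologically independent. Members and lists were chosen with earlier results of these data known. Members named were HSF1, HSF2, the inducible list, those called against at least 2 controls, the 3 per direction with the largest median change over controls, the 5 per direction with the largest change with time, and HSPG2; not every one is printed. Positions are from GENCODE 29. Symbols are from a list of current gene names, or from GENCODE 29 where that list has none. The rule matched 2 further genes by their GENCODE 29 symbol alone, and these were not taken as members. Alternatives were DESeq2 1.42.0, RLE factors, no filter, a replicate block, RUV factors, fits of 2 arms, DMSO alone for time, and leaving out each library. The result of 1 further HSF1 pathway gene is not reported here.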

Additional observations from a re-analysis of the deposited data

Results flagged for a closer look

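In 3 of 108 groups of 4 libraries whose values were examined, 1 library stood apart from the other 3 by more than Dixon's critical ratio for 4 values (gap to the nearest library divided by the range), where chance gives about 1 in 20 groups. HSPA8 in light alone at 6 h had its highest library, replicate 2 at 2088 CPM, apart with a ratio of 0.865. DNAJC8 in probe alone at 12 h had its highest library, replicate 3 at 206 CPM, apart with a ratio of 0.839. HSP90AA2P in T-REX at 3 h had its highest library, replicate 3 at 7.53 CPM, apart with a ratio of 0.871.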

How the results depend on the processing

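Each call of a single member was recomputed under the other settings, and 361 such values kept their direction and their side of the threshold, 143 kept the direction and lost the call, and 0 changed direction. RLE factors lost 0 of 23 calls. DESeq2 lost 0 of the 21 for which it gave an adjusted p (it gave none for HSPA6 and DNAJB13, probe alone against DMSO at 12 h). The filter removed 0 genes, so the fit with no filter on low counts repeats the main fit. Its 23 values are among the 361 and are no check of the calls. Against T-REX, RLE factors made 7 calls in place of 5 for DMSO at 12 h. Whether the replicate number pairs the libraries is not settled by their correlations. Same-numbered libraries correlated above 0.1 in 11, 9 and 3 of 24 pairs at 3, 6 and 12 h. Their median correlation was 0.0374, −0.0123 and −0.0079, against −0.0212, −0.0033 and −0.0045 for different numbers. Of 16 libraries per time point, 5, 9 and 3 correlated best with their own number. The replicate block lost the call of HSPD1 for light alone against probe alone (adjusted p = 0.0692), which left 1 member called between controls at 3 h in place of 2, and no other call.

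The largest shifts in counts came with the RUV factors, whose method is not given in the sources used here. They kept all 16 calls between T-REX and a control and made 75. The share of all genes called is not given for the RUV, DESeq2 or 2-arm fits. A rise in calls across all genes thus cannot be told apart from a rise in the members. At 3 h they gave 7, 10 and 15 members called against the light alone, probe alone and DMSO controls, 11 against at least 2 controls and 13 between controls. At 6 h these counts were 3, 2, 5, 1 and 10, and at 12 h they were 5, 11, 17, 9 and 23. DESeq2 made 26 calls between T-REX and a control, including all 16, with 3 between controls at 3 h, 1 against DMSO and 1 between controls at 6 h, and 2, 9, 2 and 2 against light alone, DMSO, at least 2 controls and between controls at 12 h. In fits of only the 2 arms compared, 6 of the 16 calls were kept, with 0, 1, 0 and 4 members called against probe alone, DMSO, at least 2 controls and between controls at 3 h, and 4, 9, 2, 2 and 9 against light alone, probe alone, DMSO, at least 2 controls and between controls at 12 h. The cause was not tested. With DMSO alone in place of the 3 control arms, 11, 25 and 13 members were called for 6 h against 3 h, 12 h against 3 h and 12 h against 6 h, with 4 rather than 12 libraries per time point. Of all 14685 genes, 1329, 2997 and 1060 were called higher in these contrasts and 1023, 2697 and 721 lower.

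Leaving out each library in turn gave 0 to 1, 0 to 7 and 2 to 7 members called against the light alone, probe alone and DMSO controls at 3 h, 0 to 6 against at least 2 controls and 0 to 4 between controls. At 6 h it gave 0 to 0, 0 to 0 and 0 to 1, and 0 to 0 in both other counts. At 12 h it gave 0 to 4, 0 to 4 and 3 to 16, with 0 to 3 against at least 2 controls and 2 to 7 between controls. Changes with time ranged from 24 to 29, 32 to 34 and 21 to 28 members, and the interaction from 0 to 0 and 0 to 1. Shares of all genes called in these fits without 1 library are not given either. Summing HSPA1A with HSPA1B was not run, since HSPA1A was not analysed here. At 1 to 8 CPM, as for HSPA6, DNAJB13 and HSP90AA2P, few reads limit the precision.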
